A study of Mus musculus with 262 samples.

Results

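Genes of MHC class II antigen presentation were followed through every deposited table of a mouse kidney study: Cd74, H2-Aa, H2-Ab1, H2-Eb1, H2-DMa, H2-DMb1 and Ciita. They were chosen by symbol as a known pathway and are 7 of 46959 symbols in the single-cell table, 46961 in the tubule table, 46959 in the table of c-Kit and DBA samples and 24111 in the table of GFP samples. The study comprised 262 RNA samples from kidneys of 2-month-old male mice. Most were single cells of C57BL/6 mice, sorted and then captured on a microfluidic chip, which the authors had divided by type: 87 intercalated cells of type A and 23 of type B, 74 principal, 19 proximal tubule and 32 non-epithelial. Bulk samples comprised 2 sorted with c-Kit and 2 sorted with DBA, a lectin, from C57BL/6 mice, and, from the strain Atp6v1b1GFP, 2 samples with GFP and 2 without, which carries GFP under the name of a proton pump subunit of intercalated cells. The remaining samples were single tubules dissected by hand from C57BL/6 mice, of which 11 were collecting ducts of the cortex (CCD) and 8 were thick ascending limbs of the cortex (cTAL). No treatment or mutation separated any groups, and no label said that replicates came from separate animals, so p-values measure only the spread between these samples.

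MHC class II molecules carry peptides from endosomes to the cell surface, where CD4+ T cells read them. The α and β chains (H2-Aa with H2-Ab1 in the I-A molecule, H2-Eb1 as the β chain of I-E) assemble on the invariant chain encoded by Cd74. That chain is cut in endosomes, and the H2-DM dimer of H2-DMa and H2-DMb1 exchanges its last piece for a peptide. Ciita is the coactivator that turns the genes on together by docking on factors bound to shared promoter boxes. The pathway is a property of professional antigen-presenting cells, and in the kidney macrophages and dendritic cells lie between the tubules. Epithelial cells can acquire it under interferon gamma.

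In GRCm38, H2-Aa (chr17:34282744-34287823, minus strand), H2-Ab1 (chr17:34257689-34269419), H2-Eb1 (chr17:34305867-34316674), H2-DMa (chr17:34119541-34139101) and H2-DMb1 (chr17:34153072-34160230) lie together in the MHC on chromosome 17. Ciita lies at chr16:10480059-10528418. Annotated genes on the opposite strand share 2204 bases with H2-Eb1 (Gm20513), 3094 with H2-DMa (Brd2) and 25888 with Ciita (Dexi). H2-DMb1 has the near copy H2-DMb2. Reads in shared stretches cannot be assigned with certainty, since no source used here gives the strand setting.

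Promoter letters are shown because Cd74, H2-Aa, H2-Ab1 and H2-Eb1 varied together across the single cells. Class II promoters are known to share boxes that bind the RFX and NF-Y factors. The RefSeq promoter table (GRCm38.p6, from 250 bases before to 50 after a start) held windows of H2-Aa, H2-Eb1, H2-DMa and H2-DMb1. The following stretches are 5′ to 3′ on the gene's strand, and capitals mark an X box-like CTNGNAACT and then a Y box TGATTGG.
H2-Aa, chr17:34287861-34287913 (minus strand): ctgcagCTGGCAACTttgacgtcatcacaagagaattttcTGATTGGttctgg
H2-Eb1, chr17:34305767-34305818 (plus strand): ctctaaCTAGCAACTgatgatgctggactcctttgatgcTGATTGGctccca
H2-DMb1 held CTAGTAACT and TGATTGG, 25 bases apart as in H2-Aa, against 24 in H2-Eb1. The X box-like letters began 84, 94 and 97 bases before the RefSeq starts of H2-Aa, H2-Eb1 and H2-DMb1. Those of H2-DMb1, within chr17:34153088-34153140, lie past the gene start given above (34153072), since the 2 sources place that start differently. The letters were chosen after these sequences were seen. Searched on both strands, CTNGNAACT occurred in 4.10% of 32851 windows, TGATTGG in 7.82% and both in 115 windows. In that order on the gene's strand with fewer than 30 bases between them, they occurred in 5 windows (0.0152%), those of H2-Aa, H2-Eb1, H2-DMb1, BC051142 and 1700048F04Rik. Neither box was found in the 2 windows of H2-DMa, and H2-DMb2, H2-Oa, H2-Ob and H2-Eb2 held TGATTGG alone.

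In single cells the members were expressed at high levels in the non-epithelial cells and at low levels elsewhere. These values are TPM (transcript abundance scaled by length and to a fixed total per cell), each cell type counts as 1 sample, and no test between types was made. Cd74, the invariant chain, ranged from 4736 to 71227 TPM over the 32 non-epithelial cells, with a median of 25165. H2-Aa had a median of 15065 TPM, H2-Ab1 of 11876 and H2-Eb1 of 5945, and each was detected (1 TPM or more) in 32 of 32 cells. The 7 members together took from 0.812% to 16.1% of a non-epithelial cell's TPM, with a median of 6.87%. In epithelial cells the highest median sum was 70.99 TPM, in the proximal tubule cells. By mean TPM, all 7 members were highest in the non-epithelial cells, and by median 6 were, since Ciita had a median of 0 TPM in every type. The share of all genes highest there by mean was not computed.

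**Figure D1:**
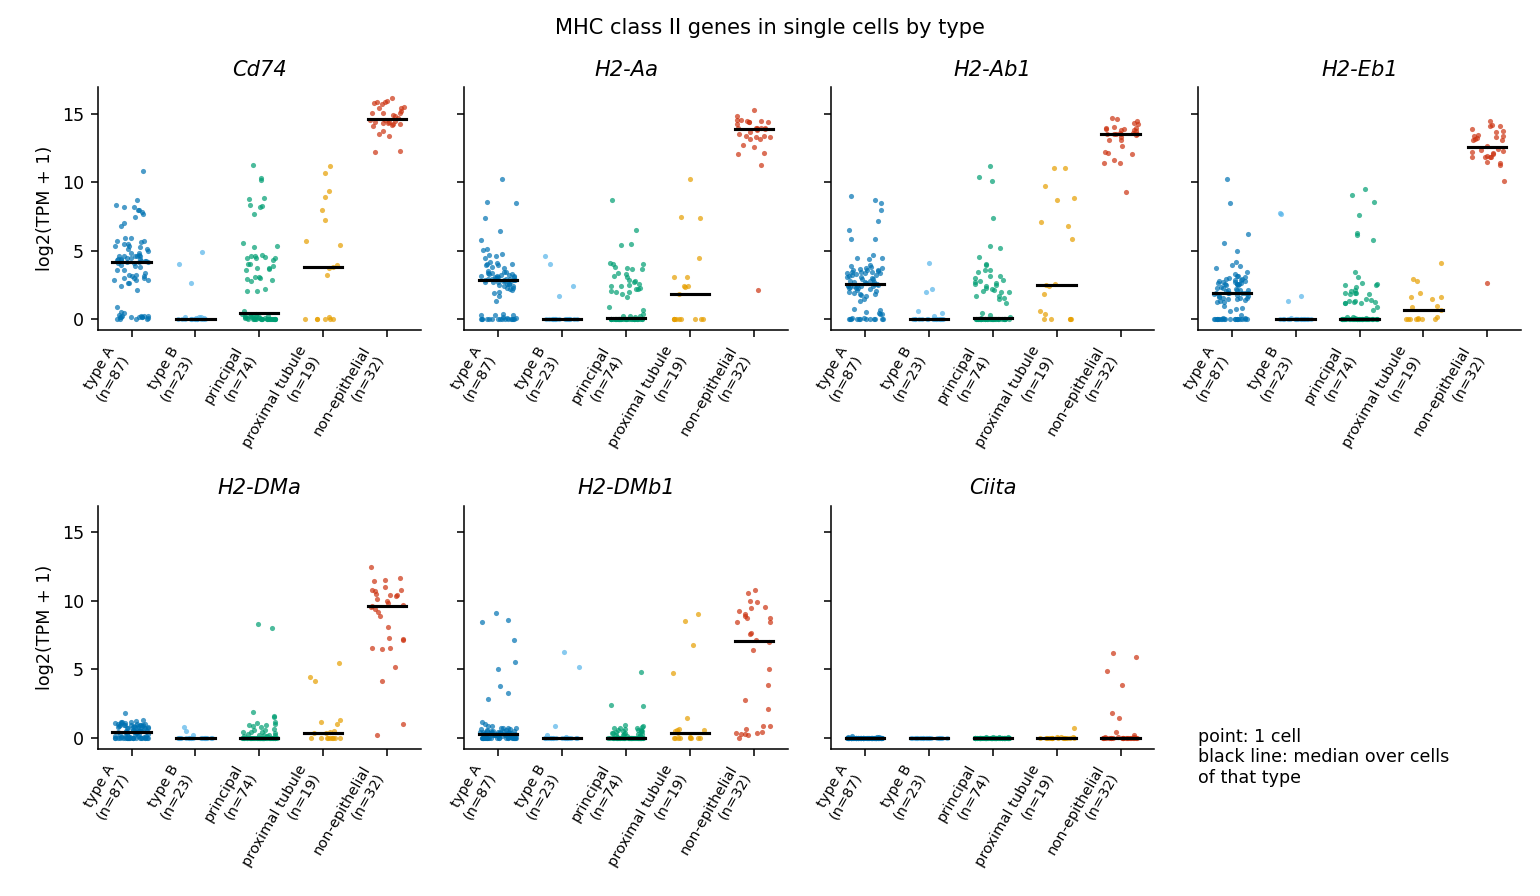
Level of each member as log2(TPM + 1) in every single cell (points), grouped by the authors' cell type, with a black line at the median over cells. The non-epithelial cells form a high band for Cd74, H2-Aa, H2-Ab1 and H2-Eb1, apart from 1 cell that is low for H2-Aa and H2-Eb1, and the epithelial types overlap each other.

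H2-DMa and H2-DMb1, the subunits of the peptide editor, were lower and less evenly detected than the chains they act on. H2-DMa had a median of 798 TPM in the non-epithelial cells and was detected in 30 of 32. H2-DMb1 had a median of 136 TPM and was detected in 22 of 32. The coactivator Ciita was the rarest member, at 1 TPM or more in 6 of 32 non-epithelial cells and in 0 of 203 epithelial cells, which allows a share of up to 1.48% of epithelial cells with a detected transcript (3 cells of the total, counting error only). That limit is not one on expressing cells, since Ciita was also below 1 TPM in the other 26 non-epithelial cells. Its highest values were 72.4 TPM in cell 31, 58.4 in cell 22 and 28.6 in cell 32 of the non-epithelial group, by the table's running numbers. Cells with full class II levels and no detected Ciita were therefore the majority.

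The order of the epithelial types depended on the summary used. For Cd74 the medians ran from 17.1 TPM in type A cells (quartiles 5.28 and 35.5) to 12.9 in proximal tubule cells (0 and 200), 0.41 in principal cells (0 and 20.5) and 0 in type B cells (0 and 0.085). Interquartile ranges of type A, proximal tubule and principal cells overlapped, and each lay below the lowest non-epithelial cell. Means gave another order, from 295 TPM in proximal tubule to 99.4 in principal, 65.8 in type A and 2.22 in type B cells, because a few cells were high. H2-Aa, H2-Ab1 and H2-Eb1 had medians of 6.27, 4.98 and 2.74 TPM in type A cells and at most 0.075 TPM in principal and type B cells. In proximal tubule cells the medians of H2-Aa and H2-Ab1 were 2.58 and 4.58 TPM, within the type A quartiles, and that of H2-Eb1 was 0.63.

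Shares of cells with the transcript are given next, with intervals that cover counting error over cells only and do not compare types. Cd74 was detected in 68 of 87 type A cells (78.2%, Clopper-Pearson 95% interval 68.0% to 86.3%), 12 of 19 proximal tubule cells, 36 of 74 principal cells (48.6%, 36.9% to 60.6%) and 3 of 23 type B cells (13.0%, 2.78% to 33.6%). Aqp2, the principal cell water channel, was also found outside its own cell type: in 58 of 87 type A cells with a median of 2.81 TPM, 14 of 19 proximal tubule cells, 15 of 32 non-epithelial cells and 3 of 23 type B cells. Type B cells thus had few cells with either transcript, and type A cells many with both. The sort labels differed between these types, with 17 of 23 type B cells from a PNA sort and 60 of 87 type A cells from a sort on DBA and c-Kit together and 25 from c-Kit alone. The part of the sort, the capture and RNA from other cells in these low values was not tested.

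Cells mostly held all or none of the 4 core genes, Cd74, H2-Aa, H2-Ab1 and H2-Eb1. All 4 were at 1 TPM or more in 32 of 32 non-epithelial cells (Clopper-Pearson 95% lower bound 89.1%). Here too intervals cover counting error over cells only. Among 203 epithelial cells, 96 held all 4 (47.3%, 40.3% to 54.4%), 11 held 3, 2 held 2, 23 held 1 and 71 held none. Type A cells contributed 59 of 87 (67.8%, 56.9% to 77.4%), principal cells 27 of 74, proximal tubule cells 7 of 19 and type B cells 3 of 23. The level separated these cells from the non-epithelial ones: with a threshold of 10 TPM, 10 epithelial cells held all 4 and 31 non-epithelial cells did, and with 100 TPM the counts were 1 and 31. Epithelial cells with all 4 at 1 TPM or more were not spread evenly over the running numbers. Principal cells 38 to 54 each held all 4, and among principal cells 1 to 37 only cell 33 did. In type B they were cells 3, 4 and 5. The part of the sort and the capture in these runs, and so in the shares by type, was not tested.

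Epithelial cells with all 4 core genes also carried macrophage transcripts. At least 1 of 4 pan-leukocyte and 10 macrophage markers was at 1 TPM or more in 83 of 96 such cells, in 16 of 36 cells with 1 to 3 core genes and in 13 of 71 cells with none. C1qb, a complement subunit made by tissue macrophages, was detected in 72 of the 96 and in 0 of the 71. It was the most frequent macrophage marker, followed by Lyz2 (45 of the 96), Cd68 (27) and C1qa (13). The others were rare in the 96: C1qc in 5, Fcgr1, Mrc1 and Cx3cr1 in 2 each and Adgre1 in 1. Csf1r was in 7 of the 96 and in 6 of the 71. At least 3 macrophage markers were detected in 27 of the 96. In type A cells with all 4, C1qb was detected in 49 of 59, Tyrobp in 34 and Lyz2 in 28. Ptprc, the common leukocyte antigen, was detected in 12 of the 96 and in 3 of the 71. The number of genes per cell at 1 TPM or more was similar, with medians of 2868 with all 4 core genes and 2739 with none. Whether these low class II values are the cells' own RNA was not tested.

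**Figure D2:**
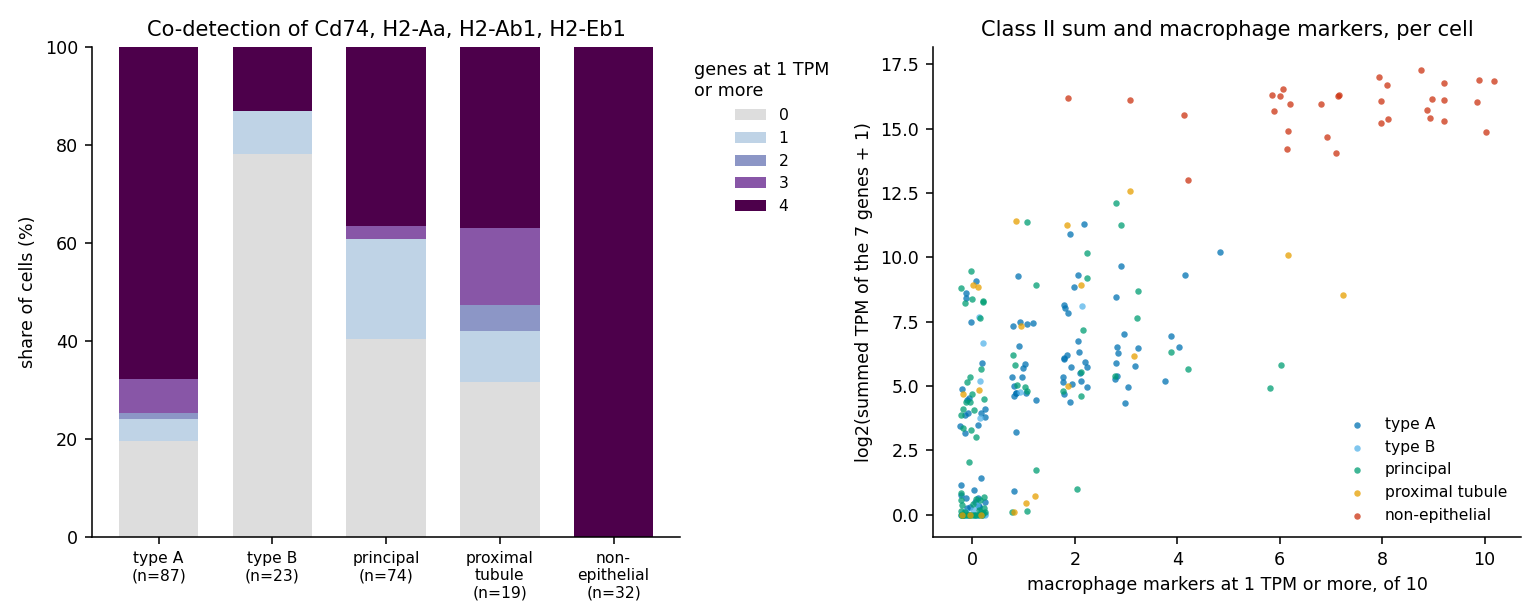
Left, share of cells in percent of each type that held 0, 1, 2, 3 or all 4 of Cd74, H2-Aa, H2-Ab1 and H2-Eb1 at 1 TPM or more. Right, log2(summed TPM of the 7 members + 1) of each cell (points, coloured by type and spread sideways) against the number of 10 macrophage markers at 1 TPM or more. All 32 non-epithelial cells held all 4 genes and sit at the top with 2 to 10 markers, above every epithelial cell in the sum, while most epithelial cells hold 0 or all 4 genes.

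Ratios between the core genes were computed in the cells holding all 4. The median ratio of Cd74 to H2-Aa TPM was 2.06 in non-epithelial, 2.54 in type A, 2.12 in principal and 1.97 in proximal tubule cells. For H2-Aa to H2-Ab1 the medians were 1.24, 1.16, 1.06 and 0.55 in the same order, and for H2-Ab1 to H2-Eb1 they were 1.70, 1.59, 1.95 and 26.3. The last value stood apart from those of the other types and rests on 7 proximal tubule cells. Single cells varied widely around these medians, with H2-Ab1 to H2-Eb1 ratios from 0.00745 to 202 in the 59 type A cells.

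A smaller set of epithelial cells departed from that pattern. At least 1 core gene reached 100 TPM in 41 epithelial cells: 29 had exactly 1 such gene, 7 had 2, 4 had 3 and 1 had all 4. In 10 of the 41 the high gene was the only core gene at 1 TPM or more, and 6 of these were principal cells. Principal cell 22 held Cd74 at 450 TPM with the other 6 members at 0, and principal cell 8 held H2-Eb1 at 712 TPM with the other 6 at 0. Both had all 5 epithelial markers (Epcam, Cdh1, Cdh16, Krt8 and Krt18) and no pan-leukocyte or macrophage marker at 1 TPM or more. These cells held 1 class II gene without the others. Principal cell 33 was the only epithelial cell with all 4 core genes past 100 TPM. It had Cd74 at 2496, H2-Ab1 at 1098, H2-Aa at 410, H2-Eb1 at 198 and H2-DMa at 255 TPM, together with C1qb at 116 TPM and all 5 epithelial markers.

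The DM genes were also scattered over a few epithelial cells at high levels. H2-DMb1 was at 1 TPM or more in 20 of 203 epithelial cells and at 100 TPM or more in 7, of which 4 were type A cells (highest 547 TPM) and 3 proximal tubule cells (highest 532 TPM). H2-DMa was at 1 TPM or more in 24 of 203 and at 100 or more in 2, both principal cells (highest 319 TPM). Most type A cells were below 1 TPM for each gene, with medians of 0.38 TPM for H2-DMa and 0.2 for H2-DMb1. In the epithelial types the values of 100 TPM or more of the DM genes fell in different cell types, so no epithelial cell held both at that level.

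The authors' label for the non-epithelial cells was checked against markers. Macrophage markers numbered from 2 to 10 of 10 per cell, with a median of 7.5, and each of the 32 cells had at least 1 of 4 pan-leukocyte markers. At least 3 of 10 dendritic cell markers were detected in 6 cells. The group is thus described by its leading genes as leukocytes of mainly macrophage marker content, and no finer name is given. Among these cells the α and β chains varied together: across 32 cells on the log2(TPM + 1) scale, Pearson's r was 0.95 between H2-Aa and H2-Eb1, 0.85 between H2-Aa and H2-Ab1 and 0.79 between Cd74 and H2-Ab1. Without cell 19, which is described next, these were 0.80, 0.91 and 0.72. H2-DMa had an r of -0.01 against H2-Aa, -0.06 against H2-Eb1 and 0.31 against H2-Ab1, and without cell 19 of 0.38, 0.18 and 0.55, below those among the chains. The cells share library preparation and a fixed TPM total.

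Non-epithelial cell 19 was low for H2-Aa and H2-Eb1. It held Lyz2, the macrophage and neutrophil lysozyme, at 33030 TPM and Cd74 at 4736 TPM, with H2-Ab1 at 628, H2-Aa at 3.4 and H2-Eb1 at 5.18 TPM. Its H2-DMa value was 2747 TPM, above the median of the other cells, and C1qa was at 0. Cell 32 had 5 of 10 dendritic cell markers, as did cell 11, with Flt3 at 352 TPM, C1qa at 0 and Ciita at 28.6 TPM. The H2-Aa and H2-Ab1 levels of cell 32, 22761 and 20271 TPM, lay above the upper quartiles of the 32 cells. The highest values of these genes were 39019 and 26656 TPM. A cell with macrophage markers and full class II levels was the usual case.

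The remaining class II genes were rare in single cells. H2-Oa and H2-Ob encode the H2-DO dimer that restrains H2-DM in B cells and dendritic cells, and H2-DMb2 is the second DM β gene. They were detected in 4, 6 and 5 of 32 non-epithelial cells. Of the 6 cells with at least 3 dendritic cell markers all 6 held at least 1 of the 3 genes, against 7 of the 26 other cells. Ciita was detected in 4 of those 6 and in 2 of the 26. The marker threshold was chosen with the values in view, and no test was made over cells of 1 sample.

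Other genes of the pathway were taken from lists. Of 9 endosomal processing genes in the table, 6 had their highest mean in the non-epithelial cells, led by Ctss, the protease that cuts the invariant chain (3033 TPM on average, 32 of 32 cells), Ctsb (754 TPM) and Ctsz (722 TPM). Of 6 costimulation genes 5 did, led by Cd86 (925 TPM, 30 of 32 cells). Of 9 class I presentation genes all 9 did, led by B2m (4466 TPM), and of 8 genes of the interferon gamma axis 6 did, led by Irf1 (304 TPM). Of the 7 factors that bind class II promoter boxes, 0 did. Each of these 7 was detected in 2 to 5 of the 32 cells, while their target H2-Aa was detected in all 32. The share of all genes with their highest mean in these cells was not computed, so the counts describe the lists only.

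Genes other than the members were ranked by how alike their single-cell pattern was to that of H2-Ab1. Across all single cells, Pearson's r on the log2(TPM + 1) scale was 0.88 for Ctss, 0.85 for C1qb, 0.85 for Fcer1g, 0.84 for Tyrobp and 0.83 for Ccl4. For the members it was 0.91 with H2-Aa, 0.89 with Cd74, 0.85 with H2-Eb1, 0.84 with H2-DMa and 0.60 with H2-DMb1. These values are set by the contrast between the non-epithelial cells and all others. Within the 32 non-epithelial cells genes among the most alike were Cd81 (0.63), Bmp2k (0.59), Tcf4 (0.58) and Ptprc (0.55).

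In sorted bulk fractions class II transcripts were lower where intercalated cell markers were higher. In bulk samples fewer cells of a type and less RNA per cell cannot be told apart. In the GFP sort the type A and type B marker lists (4 of 4 each) were higher in the GFP-positive samples, as were principal cell (5 of 5, median log2 difference 2.09) and general epithelial markers (4 of 5), while stromal markers were lower (3 of 4). Of 4 thick ascending limb markers 1 was higher and 1 lower. Their sum was 9815 to 14693 CPM in the GFP-positive samples, above that of the type A markers (3586 to 8078), and 8259 to 8566 in the GFP-negative samples. Cd74 had 24796 and 9764 reads in the GFP-negative and 1717 and 1807 in the GFP-positive samples, with 35530885 to 40815091 reads in genes per sample. Its level was 433 ± 209 CPM (reads scaled to the TMM-adjusted library total) against 46.9 ± 1.09 (SD, n = 2 each). The groups did not overlap, and the first GFP-negative sample (581 CPM) was well above the second (286 CPM).

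For the GFP comparison, 6 of the 7 members were lower in GFP-positive samples (edgeR quasi-likelihood test, adjusted p under 0.05) and 0 were higher, where 17.3% of 15671 genes were called lower and 15.2% higher. All 7 were lower in both GFP-positive than in both GFP-negative samples, which held for 34.4% of genes. The log2 difference was -3.21 for Cd74 (SE 0.32, adjusted p = 0.000158), -3.78 for H2-Aa (SE 0.39, adjusted p = 0.000182), -3.72 for H2-Eb1 and -3.05 for H2-Ab1. The peptide editor gene H2-DMa was lower by a log2 difference of -2.60 (SE 0.45, adjusted p = 0.00287). Without GFP-negative replicate 1 all 5 of these estimates were smaller, at -2.61 for Cd74, -3.00 for H2-Aa, -2.65 for H2-Eb1, -2.15 for H2-Ab1 and -1.93 for H2-DMa, and each was still called. Without GFP-negative replicate 2 that of H2-Eb1 was -4.33. H2-DMb1 had a log2 difference of -1.25 (SE 0.49) and was not called (adjusted p = 0.0846 by edgeR, 0.0454 by DESeq2). With 1 sample left out its adjusted p by edgeR ran from 0.0182, without GFP-negative replicate 2, to 0.487, without GFP-negative replicate 1.

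Ciita was measurable in all 4 GFP-sort samples, with 445 and 158 reads in the GFP-negative and 79 and 82 in the GFP-positive samples. Its log2 difference was -1.81 (SE 0.49, edgeR adjusted p = 0.0218). The call was lost without GFP-negative replicate 1 (adjusted p = 0.176), GFP-positive replicate 1 (0.0829) or GFP-positive replicate 2 (0.0727).

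Macrophage markers moved with the members in this sort. Of 9 tested, 8 were lower in GFP-positive samples, with a median log2 difference of -3.62 against -3.05 for the members and 0.02 for all genes tested. Summed macrophage markers were 43.2 and 57.7 CPM in the GFP-positive and from 281 to 694 in the GFP-negative samples. Pan-leukocyte (4 of 4) and endothelial (5 of 5) markers were lower too, and proximal tubule markers were lower in 5 of 5. Of 10 dendritic cell markers 3 were lower and 0 higher. The part of leukocyte content in the class II difference was not tested.

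Read over the same comparison, the rest of the pathway was not uniformly lower. Ctss was lower by a log2 difference of -3.40, close to the chains, with Ctsz at -1.29 and Lgmn at -1.15, while Ctsd, a general lysosomal protease, was higher by 0.83. Of 6 costimulation genes 1 was lower (Icam1, -2.20). Of 9 class I genes 1 was lower (B2m, -1.05), with the other 8 not called and a list median of -0.55. Of 7 tested genes of the interferon gamma axis 0 were called by edgeR, and 1 had an unadjusted p under 0.05. Among the 7 promoter factors Nfyc was higher (0.85) and Nfya lower (-0.81).

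**Figure D3:**
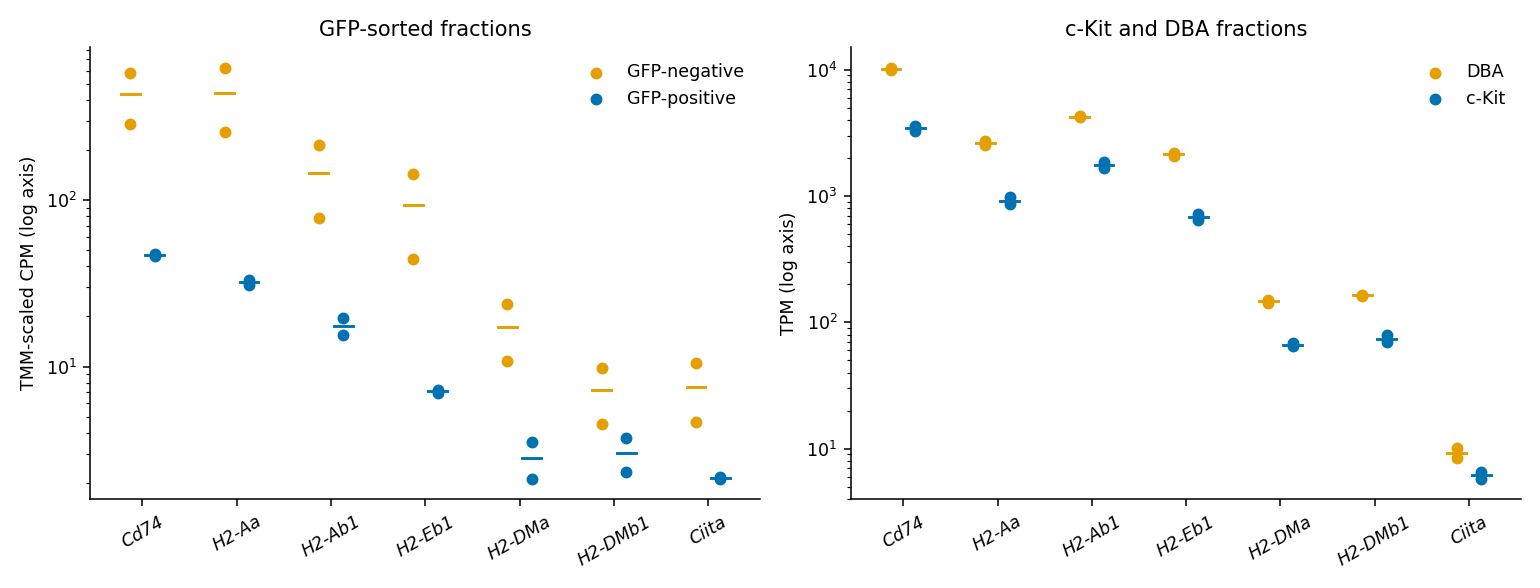
Level of each member in each sorted bulk sample, in TMM-scaled CPM for the GFP sort (left) and in TPM for the c-Kit and DBA sorts (right), on log axes, with 1 point per sample and a line at the mean of 2 samples. All 7 members lie lower in both GFP-positive than in both GFP-negative samples, and lower in both c-Kit than in both DBA samples.

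In the second sort, on c-Kit or DBA, all 7 members were lower in the c-Kit samples (limma on log2(TPM + 1), adjusted p under 0.05) and 0 were higher, where 28.1% of 14341 genes were called lower and 16.1% higher. All 7 did not overlap between groups in that direction, which held for 46.3% of genes. The c-Kit samples had all 4 type A and all 4 type B markers higher, and all 5 principal cell markers lower, than the DBA samples. Cd74 had 3581 and 3301 TPM in the c-Kit and 9971 and 10334 TPM in the DBA samples. It was lower by a log2 difference of -1.56 (SE 0.07, adjusted p = 1.83e-05).

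The core genes differed alike in this sort. H2-Aa had 975 and 867 TPM with c-Kit and 2541 and 2748 with DBA (-1.52). H2-Ab1 had 1857 and 1654 against 4230 and 4289 TPM (-1.28). H2-Eb1 had 719 and 649 against 2063 and 2207 TPM (-1.64). The DM genes had lower levels per length. H2-DMa had 68.2 and 65.4 against 142 and 150 TPM (-1.12), and H2-DMb1 had 79.4 and 69.6 against 162 and 166 TPM (-1.13). In each of these 6 genes the difference between the groups exceeded the spread between replicates.

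Ciita differed least, with 5.81 and 6.52 TPM with c-Kit and 8.52 and 10.09 TPM with DBA, a log2 difference of -0.52 (SE 0.15, limma adjusted p = 0.0330). The call did not hold without any 1 of the 4 samples (cKit 1, cKit 2, DBA 1 or DBA 2, adjusted p from 0.0575 to 0.228), without the filter on low values (0.0927) or after quantile normalization (0.241). The remaining family genes went the other way. H2-Oa was higher with c-Kit (9.21 ± 2.44 against 3.63 ± 1.05 TPM, log2 difference 1.14, adjusted p = 0.00926), as were H2-Ob (0.73, adjusted p = 0.0245) and H2-DMb2 (0.48, adjusted p = 0.0330).

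Markers of leukocyte types split in the same 2 directions, while the pan-leukocyte markers did not. All 4 of the latter were lower with c-Kit (median log2 difference -1.24, against -1.28 for the members). Proximal tubule markers were lower in 5 of 5 and endothelial markers in 3 of 5. Of 10 macrophage markers 9 were lower with c-Kit (median log2 difference -2.49), and their sum was 1407 and 1609 TPM with c-Kit and from 4585 to 4882 with DBA. The exception was Lyz2, with 838 ± 83.7 against 771 ± 82.3 TPM (SD, n = 2 each), which was not called. Of 9 dendritic cell markers tested, 3 were higher with c-Kit (Xcr1 by 2.72, Cd209a by 2.69, and Flt3 with 5.95 ± 1.25 against 0.22 ± 0.057 TPM). The 2 lower ones were Itgax (7.09 and 2.87 against 14.2 and 13.4 TPM) and Clec10a (2.08 and 3.08 against 10.7 and 9.88 TPM). The 1 B cell marker tested, Cd79b, was lower (-1.59). Mast cell markers were higher in 3 of 4 tested and plasma cell markers in 3 of 4. Genes of the H2-DO dimer were higher in the samples with more Flt3 and Xcr1 and less Itgax, Clec10a and Cd79b. The chains were higher in those with more macrophage markers. The part of any leukocyte type in these differences was not tested.

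The rest of the pathway was mostly lower with c-Kit. Of 9 endosomal genes 7 were lower, led by Ctss (-1.60), Lgmn (-0.89) and March1 (-0.85), and Ctsl was higher (0.29). Of 4 costimulation genes tested Cd86 (-1.25) and Icam1 (-0.78) were lower. Of 9 class I genes 8 were lower, led by B2m (-1.18), H2-D1 (-0.99) and H2-K1 (-0.92). Of 8 genes of the interferon gamma axis 5 were lower, among them Irf1 (-1.67) and Ifngr1 (-0.73). Among the 7 promoter factors only Creb1 was lower (-0.40). The median over all genes tested was -0.11.

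A further class II gene was counted in the GFP sort and was at or near 0 in the other tables. H2-Ea-ps is the I-Eα gene, which is a pseudogene in C57BL/6 and other strains with a promoter deletion and is functional in others. It had 4232 and 667 reads in the GFP-negative and 186 and 115 in the GFP-positive samples of the Atp6v1b1GFP strain. It was listed at 0 TPM in every single cell and in all 4 c-Kit and DBA samples, and 18 of 19 tubules were at 0, with 0.96 TPM in the last (m6_cTAL2). H2-Ea-ps was lower in GFP-positive samples by a log2 difference of -3.89 (SE 0.68, edgeR adjusted p = 0.00299), like the other chains. The tables differ in annotation and processing, so the level was not compared between them, and the effect of annotation on the zeros was not tested.

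Its share relative to H2-Eb1, the chain it would pair with, followed the replicate number. Of reads in both genes, H2-Ea-ps took 41.0% in GFP-negative replicate 1 (Clopper-Pearson 95% interval 40.1% to 42.0%) and 40.8% in GFP-positive replicate 1 (36.2% to 45.5%). In replicate 2 it took 30.6% (28.7% to 32.6%) and 30.5% (25.9% to 35.4%). Intervals cover counting error only. The 2 samples of each number thus lay together, and the numbers apart, beyond counting error.

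**Figure D4:**
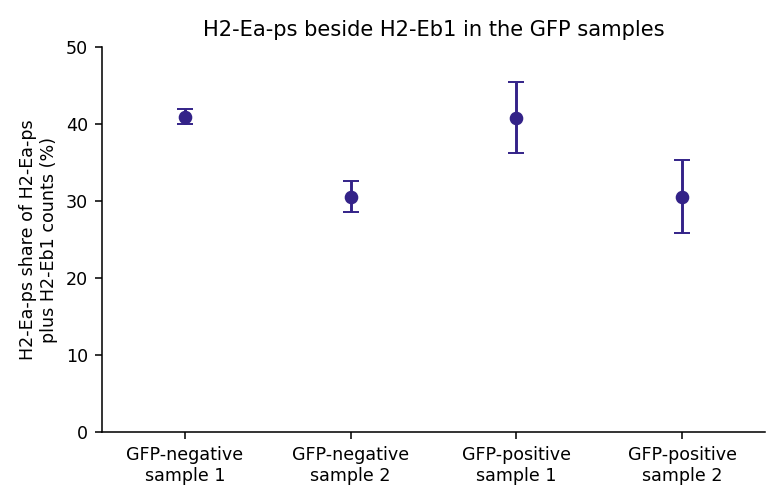
Share in percent of H2-Ea-ps among the reads of H2-Ea-ps and H2-Eb1 in the 4 samples of the GFP sort, with Clopper-Pearson 95% intervals as bars. Both samples of replicate 1 sit near 41% and both of replicate 2 near 31%.

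In microdissected tubules 1 of the 6 members tested was called between CCD and cTAL, a share near that over all genes given below. The median log2 difference was 1.55 for these members and 0.31 for all genes tested. The type A, type B and principal cell markers (4 of 4, 4 of 4 and 5 of 5) were higher in CCD and the thick ascending limb markers (4 of 4) lower, as the labels name them. Of the 6 members tested, H2-DMb1 was higher in CCD (limma, adjusted p under 0.05) and 0 were lower, where 13.2% of 13520 genes were called higher and 5.5% lower. H2-DMb1 ranged from 3.27 to 74.9 TPM in 11 CCD with a median of 18.0, and in 8 cTAL from 0 to 16.7 TPM, with 4 of them at 1.34 TPM or lower. The log2 difference was 2.72 (SE 0.57, adjusted p = 0.00127), and H2-DMb1 was higher in CCD within 6 of 6 m numbers, the prefix shared by column names of both tubule types. The labels do not define that number. Ranges overlapped, with the cTAL of m6 and m7 at 1.34 to 16.7 TPM (median 4.63) and the lowest CCD at 3.27 TPM.

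The chains had wide and overlapping ranges. Cd74 ranged from 65.2 to 432 TPM in CCD and from 21.9 to 539 TPM in cTAL (log2 difference 0.91, SE 0.52, limma adjusted p = 0.263). H2-Aa ranged from 0.4 to 146 TPM and from 1.89 to 142 TPM, with a log2 difference of 0.04 (SE 0.82) whose sign changed under other settings. H2-Ab1 (1.43, adjusted p = 0.192), H2-Eb1 (1.68, adjusted p = 0.227) and H2-DMa (1.77, adjusted p = 0.0662) had higher means in CCD and were not called. With the m number as a block, H2-Ab1 (1.63, adjusted p = 0.0318) and H2-DMa (1.94, adjusted p = 0.0427) were called higher. With 1 mean per m number H2-DMa was called (2.47, adjusted p = 0.0358) and H2-Ab1 was not (2.13, adjusted p = 0.138). Ciita was below the filter, at 1.21 TPM or less in every tubule.

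**Figure D5:**
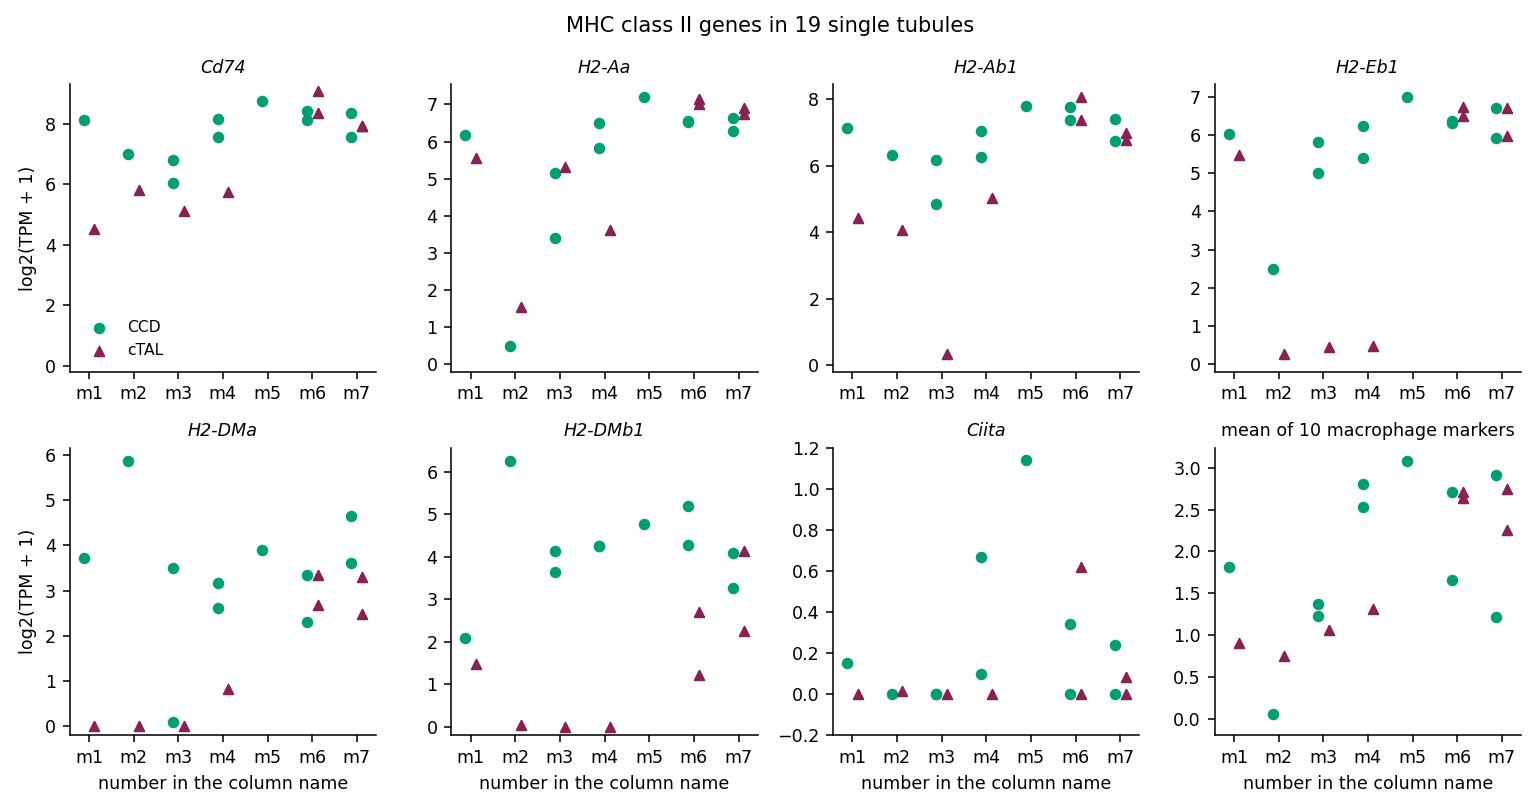
Level of each member as log2(TPM + 1), and the mean of the 10 macrophage markers on the same scale (last panel), in 11 CCD (circles) and 8 cTAL (triangles) by the m number of the column name, with 1 point per tubule. The cTAL of m1 to m4 lie below those of m6 and m7 for Cd74 and for the markers, while H2-DMb1 is higher in CCD by the mean of each of 6 m numbers.

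Within cTAL the samples fell into 2 sets by m number. Cd74 was 21.9 to 55.5 TPM in the 4 cTAL of m1 to m4 and 244 to 539 TPM in the 4 of m6 and m7. H2-Eb1 was 0.19 to 43.5 and 61.5 to 106 TPM, and H2-DMa was 0 to 0.76 and 4.55 to 9.08 TPM. The mean log2(TPM + 1) of the macrophage markers was 0.75 to 1.31 and 2.25 to 2.74, also without overlap. Summed pan-leukocyte markers (0.01 to 26.5 and 31.7 to 56.7 TPM) and the number of genes at 1 TPM or more (8094 to 10332 and 11127 to 12385) split the same way, and their part in the class II levels was not tested. H2-DMb1 overlapped between the sets, at 0 to 1.77 and 1.34 to 16.7 TPM. In CCD the same sets overlapped for Cd74, at 65.2 to 283 TPM in m1 to m4 and 189 to 345 in m6 and m7. Within m numbers, Cd74 was higher in CCD in 5 of 6, H2-Ab1 in 5 of 6, H2-DMa in 5 of 6, H2-Eb1 in 4 of 6 and H2-Aa in 2 of 6. For H2-Ab1 the log2 difference was 5.18 in m3 and 2.70 in m1, against -0.15 in m6 and 0.20 in m7.

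The members' level was set against the macrophage markers within each tubule type. In 11 CCD, on log2(TPM + 1), Pearson's r with the mean of the macrophage markers was 0.72 for Cd74 (permutation test, adjusted p = 0.0205 over 4 relations; Spearman's rho 0.83), 0.78 for H2-Aa (0.0151; rho 0.49), 0.80 for H2-Eb1 (0.0151; rho 0.77) and 0.59 for H2-Ab1 (0.0694; rho 0.70). Raw p-values were 0.0153, 0.00756, 0.00614 and 0.0694. Without m2_CCD2 and m5_CCD1, the samples farthest from the median, r was 0.69, 0.47, 0.48 and 0.56. Their permutation p-values, not adjusted, were 0.0267, 0.197, 0.195 and 0.0990. The relations of H2-Aa and H2-Eb1 thus rest in part on those samples. CCD with low marker means also had fewer genes at 1 TPM or more. These numbered 7621 in m2_CCD2, 10326 in m7_CCD2 and 10323 in m3_CCD1, the lowest by marker mean, and 13200 in m5_CCD1, the highest. The part of the number of genes in these relations was not tested. With Ptprc in place of the macrophage markers 0 of 4 relations passed. In cTAL the samples formed the 2 sets given above, so no pooled r was computed there, and none within sets of 4.

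One CCD lay apart from the others. In m2_CCD2 the macrophage markers summed to 0.37 TPM, the lowest of the 19 tubules, and 7621 genes were at 1 TPM or more, the fewest. It nevertheless held Cd74 at 128, H2-Ab1 at 79.7, H2-DMb1 at 74.9 and H2-DMa at 57.0 TPM, with H2-Aa at 0.4 and H2-Eb1 at 4.57 TPM. Both DM values were the highest of all tubules, and its H2-Aa value was the lowest. Its pan-leukocyte markers summed to 72.3 TPM, within the range of the other CCD.

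Among the other lists, class I presentation was higher in CCD in 6 of 8 genes tested, led by Psmb8 (2.34), Psmb9 (2.14) and B2m (1.58). Icam1 (2.36) and Ifngr1, the interferon gamma receptor chain (1.71), were higher, each the only called gene of its list. Of the endosomal genes Ctsd (0.80) and Ctsl (0.78) were higher and Ctsb (-0.52) and Lgmn (-0.69) lower. No promoter factor was called by limma, and 1 of 7 had an unadjusted p under 0.05. The median over all genes was 0.31, and no macrophage or dendritic cell marker was called, with 0 and 1 at an unadjusted p under 0.05. Of pan-leukocyte markers 1 of 4 was higher in CCD (list median 1.17), and so were the 1 T and NK cell marker tested (2.42), 1 of 5 endothelial and 1 of 3 stromal markers. Outside the members, the genes most like H2-Ab1 across 19 tubules were Ifitm3 (r 0.92), Mcrs1 (0.90), Med30 (0.88), Nfkbia (0.88) and Rab4b (0.87). For the members ranked, r was 0.87 with Cd74, 0.76 with H2-Eb1, 0.59 with H2-DMb1 and 0.46 with H2-Aa.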

How the data were processed

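RNA of sorted single cells on C1 chips, sorted bulk cells and dissected tubules was sequenced by the authors. The authors deposited TPM tables for cells, c-Kit and DBA samples and tubules, and raw read counts and RPKM values for the GFP sort, on RefSeq mm10 per the file headers and names. The submitters' processing notes list STAR 2.5.1b, RSEM 1.2.31 and GRCm38.p5, with no role given. Reads assigned to no feature (66.5% to 72.7%) stayed out of library sizes. TPM keeps no depth.

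Counts were compared with edgeR 4.0.16 (R 4.3.3, TMM, filterByExpr, quasi-likelihood test) and TPM values with limma 3.58.1 on log2(TPM + 1), with a variance trend, for genes averaging 1 TPM or more. P-values were Benjamini-Hochberg adjusted over all genes tested and called under 0.05. Log2 differences are on these scales, which understates low genes. Both scripts were tested on simulated data. Alternatives were DESeq2 1.42.0, RPKM, other size factors, filters, pseudocounts and normalizations, sample weights, blocks and leaving out each sample. Groups come from titles, and running numbers of cell columns were not tied to titles. No doublet caller was run. Beside the members, the text names at most 3 called genes per direction and list, those with the largest difference (in cells, the highest non-epithelial mean), examples of markers, and the 5 genes most correlated with H2-Ab1, except for genes that are not reported here. Members, lists and promoter letters were chosen with earlier results of these data known. Per-sample columns not used numbered 0.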

Additional observations from a re-analysis of the deposited data

Results flagged for a closer look

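Among the 8 cTAL samples, H2-DMb1 in m7_cTAL1 was 16.73 TPM, with a gap to the next sample of 0.671 of the whole range. Ciita in m6_cTAL2 was 0.54 TPM, with a gap of 0.889 of the range. Both stood farther from the rest than the limit of Dixon's test for 8 samples, and the Ciita value rests on levels below 1 TPM. The limit is the 95% one, so chance alone marks some groups at that rate, and among replicated groups only the cTAL group had a size at which it was applied. H2-DMb1 remained higher in CCD without m7_cTAL1.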

How the results depend on the processing

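The GFP comparison called 5101 genes, against 1639 with RPKM values in limma and 2157 with the first and second experiment of the RPKM headers as a block. The c-Kit comparison called 6348 genes and from 3458 to 5701 when 1 sample was left out, with the 2 lowest counts without DBA 2 and DBA 1 (3600). The CCD comparison called 2526 genes and 4401 with sample weights. Its members called higher, 1, became 1 to 2 when 1 tubule was left out, 3 with the m number as a replicate block and 2 with means per m number. The second gene was H2-DMa, called without m3_CCD1, m6_cTAL2 or m7_cTAL1. H2-Aa changed sign to -0.0224 with a pseudocount of 0.1, -0.0114 after quantile normalization and -0.0236 with the m block, and ranged from -0.52 to 0.55 when 1 tubule was left out. Its cause was not tested. Epithelial cells with all 4 core genes fell from 96 to 10 at 10 TPM and 1 at 100 TPM, where fewer cells pass by construction. With Ptprc, 0 of 4 tubule relations passed, and r was -0.0072 for H2-Aa and -0.15 for H2-Eb1.

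The labels do not say what replicate numbers 1 and 2 share. Same-numbered deviations correlated at 0.168 in the GFP comparison, where the RPKM headers name a first and a second experiment for both fractions and the H2-Ea-ps shares went by number, and at 0.0264 in the c-Kit comparison. With the replicate block, 5897 and 6271 genes were called, with 6 and 7 members lower, Cd74 at -3.12 and -1.56. For single members, 70 of 75 values in the GFP, 70 of 76 in the c-Kit and 149 of 167 in the CCD comparison kept their direction and call. The others were Ciita and H2-DMb1 in the sorts, as given with those genes, and in the tubules 12 values of H2-Aa that changed sign and 6 of H2-DMa or H2-Ab1 that became called. TPM gives no depth for the low values.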
